A study of Mus musculus with 56 samples.

Results

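Lipid droplet and steatosis genes are described here in mouse livers from which the liver microRNA miR-122 had been removed. The 10 genes are Plin2, Plin4, Plin5, Cidea, Cidec, Pparg, Cd36, Fabp4, Vldlr and Mogat1, and they were picked by symbol from an RNA-seq table of 21888 gene symbols, in which all 10 were found. Poly(A) RNA was sequenced from 14 livers, 1 library per mouse, and values are the authors' FPKM, fragment counts scaled to transcript length and to each library's upper quartile. All mice carried the 129Sv/J background. The 3 day 0 mice had loxP sites around pre-miR-122 and received no vector. Floxed mice of the other time points had received an AAV vector with Cre under the Ef1a promoter, which is not restricted to hepatocytes, and their livers were taken at day 21 (3 mice), day 45 (3 mice), day 100 (1 mouse) or day 200 (1 mouse). A further 3 mice were germline miR-122 knockouts. No floxed mouse with a vector lacking Cre is among the libraries, and the exact age of the mice is not given in the sources used here. The question put to the genes was how their levels differed with time after Cre and in the germline knockout.

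Hepatocytes store triglyceride in cytoplasmic droplets whose surface is coated by perilipins and CIDE proteins. Perilipins control the access of lipases, and CIDE proteins let droplets exchange lipid and fuse. In fatty liver, the nuclear receptor Pparg, which drives fat storage in adipocytes, and proteins that import fatty acids or lipoproteins are often found at higher levels.

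The removal of miR-122 was read from small RNA libraries of floxed livers of the same time points, and whether these came from the mice of the RNA-seq is not given in the sources used here. miR-122 made up 59.2 to 73.3% of the listed microRNA reads in the 3 day 0 libraries, 8.22 to 13.2% at day 21 and 0.383 to 1.23% at day 45. Its share was 4.46% at day 100 and 19.1% at day 200. No small RNA library of the knockout was used, and the miR-122 precursor is listed at 0 FPKM in all 14 RNA-seq libraries, so the RNA-seq table does not check the label. Approximate depth, read from the smallest steps of the FPKM values, was 63.1 to 99.0% of that of day 0 mouse A in the other floxed libraries and 42.5 to 49.5% in the knockout. The steps follow the scaling factor of each library, here its upper quartile, and not the number of reads itself.

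The sex of the mice is not labelled, and libraries of each group differed in it. The summed FPKM of 4 Y-linked genes (Ddx3y, Eif2s3y, Kdm5d and Uty) was 51.1 to 66.8 in 4 libraries, day 0 mouse B, day 21 mouse C, day 45 mouse C and knockout mouse C, and at most 0.061 in the other 10. Xist, the transcript of the inactive X chromosome, ran the other way, with at most 0.133 FPKM in those 4 libraries and 12.6 to 71.6 FPKM in the 10. Each group of 3 therefore held 1 library with Y-linked transcripts, and days 100 and 200 held none. Results below are from all 14 libraries unless the 10 that lack Y-linked transcripts are named, a choice made after the data were seen.

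MicroRNAs recognise their targets through base pairing of the seed, bases 2 to 8, with the 3′ untranslated region (UTR). The letters ACACTCC, complementary to the miR-122 seed, were searched on the transcript strand in the longest 3′ UTR of each gene (GENCODE vM1, mm9). The 7-base match was in 1574 of 19915 genes (7.9%) and in 1 of the 10 lipid droplet and steatosis genes, Plin4. The window of the match in Plin4 is shown as that of the set, and those of Agpat1 and Mogat2 because these triglyceride synthesis genes had the largest differences of their list at day 45. They were the 2 with a match among 6 further genes searched, all called higher at day 45, and none was found in Agpat9, Agpat4, Lpcat1 or Plin3. Capitals mark the match, and coordinates are mm9.
Plin4, base 1160 of the 3′ UTR, chr17:56240253-56240281, minus strand: tgtggactgcaACACTCCagcccagaggc
Agpat1, base 448 of the 3′ UTR, chr17:34749819-34749847, plus strand: agctgcacctgACACTCCtcacaggctca
Mogat2, base 77 of the 3′ UTR, chr7:106368221-106368249, minus strand: acagccaccagACACTCCtacaaacctag
The matches are a description of letters, and binding was not measured. The 3′ UTRs searched ran from 75 bases in Mogat1 to 5091 bases in Vldlr, against a median of 893 bases over all genes, so short ones had little room for a match.

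Promoters of 8 of the 10 genes, 13 in all because several genes have more than 1 start, were taken from the RefSeq-based table (GRCm38.p6, 250 bases before to 50 after each start). None of Cidea or Fabp4 was among them. They were searched for AGGTCA on both strands, the hexamer that nuclear receptors such as the PPARs bind in pairs. The hexamer was in 6 of the 13, belonging to Plin2, Plin5, Pparg and Cd36, and in 16.3% of the 32851 promoters of the table. Plin5 and Pparg each gave more than 1 of the 6, and the Plin5 windows overlap. The 6 are therefore not independent, and enrichment was not tested. None of these promoters searched for the set held the pair spaced by 1 base, which 13 promoters of the whole table held. The promoters of Plin5 and Cd36 are printed as those of 2 of the 3 called genes that hold the hexamer, the other being Plin2, and that of Cidec as a called gene in whose promoters it was not found. Capitals mark the hexamer on either strand.
Plin5, GRCm38.p6 chr17:56117499-56117798, minus strand: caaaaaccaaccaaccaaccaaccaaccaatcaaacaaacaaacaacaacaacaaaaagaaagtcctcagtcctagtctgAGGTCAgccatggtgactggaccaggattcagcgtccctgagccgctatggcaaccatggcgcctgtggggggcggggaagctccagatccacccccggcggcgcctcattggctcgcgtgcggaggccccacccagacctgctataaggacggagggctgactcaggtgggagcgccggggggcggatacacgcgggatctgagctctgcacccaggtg
Cd36, GRCm38.p6 chr5:17835847-17836146, minus strand: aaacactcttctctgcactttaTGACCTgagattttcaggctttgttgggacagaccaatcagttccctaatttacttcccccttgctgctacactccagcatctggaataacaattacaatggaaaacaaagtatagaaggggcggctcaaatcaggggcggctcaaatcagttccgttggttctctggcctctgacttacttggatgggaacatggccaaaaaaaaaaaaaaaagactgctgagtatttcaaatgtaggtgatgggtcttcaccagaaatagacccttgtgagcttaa
Cidec, GRCm38.p6 chr6:113435711-113436010, minus strand: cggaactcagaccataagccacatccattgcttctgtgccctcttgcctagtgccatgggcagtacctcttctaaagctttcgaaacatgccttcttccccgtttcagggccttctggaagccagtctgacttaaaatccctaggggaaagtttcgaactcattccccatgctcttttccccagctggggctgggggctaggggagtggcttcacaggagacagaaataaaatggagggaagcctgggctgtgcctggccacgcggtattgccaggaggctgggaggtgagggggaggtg

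The levels of the 10 genes spanned a wide range at day 0. Plin2 was the highest at a mean of 366.7 FPKM (SD 84.7, n = 3), followed by Plin5 at 20.3 (SD 0.976), Cd36 at 18.7 (SD 5.34), Fabp4 at 16.4 (SD 2.39) and Pparg at 6.43 (SD 1.66). Vldlr at 1.10 (SD 0.746), Plin4 at 0.670 (SD 0.231), Cidec at 0.529 (SD 0.572), Mogat1 at 0.438 (SD 0.153) and Cidea at 0.046 (SD 0.053) were low. The mice overlapped between Plin5 and Cd36, between Cd36 and Fabp4, and among Vldlr, Plin4, Cidec and Mogat1, so these neighbours in the order were not separated by their spread. In the knockout Plin2 and Plin5 still led, while Cidec, at 3.72 FPKM (SD 1.70), had moved from the eighth to the sixth place and Mogat1, at 0.132 FPKM (SD 0.0995), was last. These values were plotted for each mouse.

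**Figure D1:**
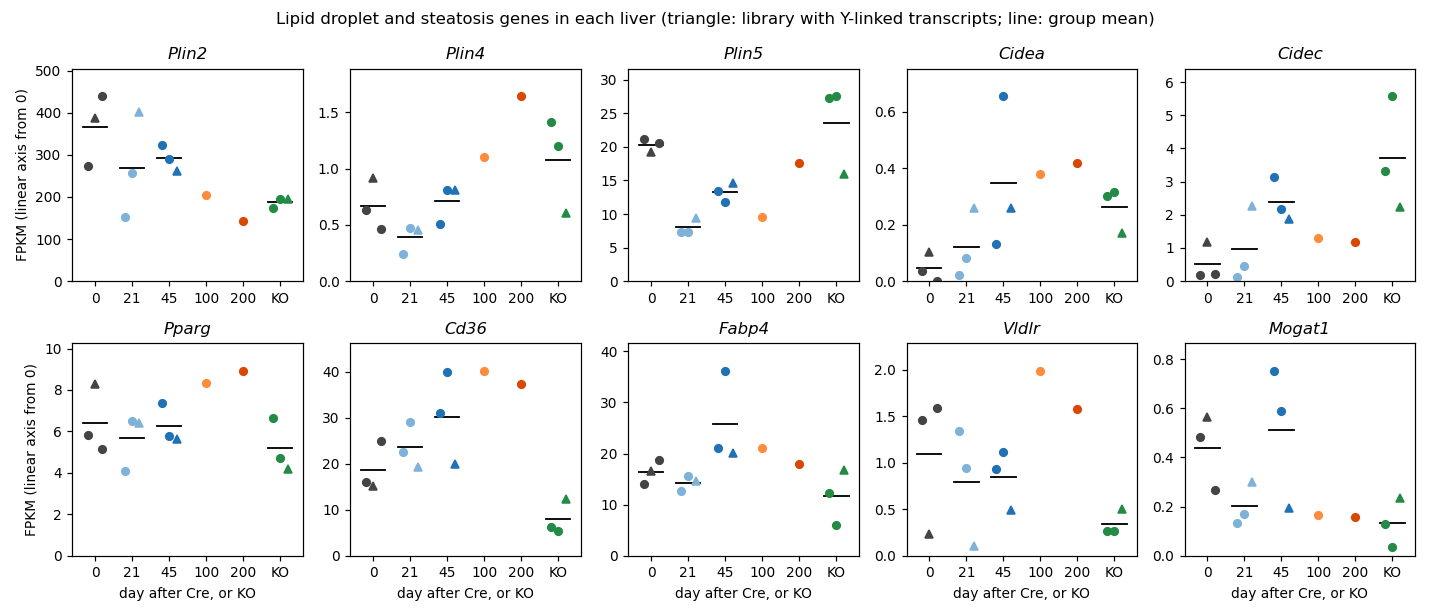
FPKM of the 10 lipid droplet and steatosis genes in each liver, on linear axes from 0, by day after Cre or in the knockout (KO). Points are mice, triangles are the 4 libraries with Y-linked transcripts and lines are means of the groups of 3. Cd36 is at 40.2 and 37.3 FPKM at days 100 and 200, above every day 0 mouse, and its 3 lowest mice are the knockouts, and Plin5 is at 7.28 to 9.46 FPKM at day 21 against 19.2 to 21.1 at day 0.

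Differences were fitted with limma on log2(FPKM + 1) for 11354 genes, those whose mean over the livers reached 1 FPKM, and a gene was called at a Benjamini-Hochberg adjusted p under 0.05 over all of them. Log2 differences on this scale understate the change of low genes. Of the 10 genes, 6 were in the fit (Plin2, Plin5, Cidec, Pparg, Cd36 and Fabp4) and Plin4, Cidea, Vldlr and Mogat1 were under the filter. The 4 comparisons with day 0 share its 3 mice. At day 21, 1 of the 6 was called, Plin5, which was lower, against 1.42% of all tested genes called lower and 6.2% higher. At day 45, 1 of the 6 was called, Cidec, which was higher, against 23.7% of all genes called higher and 2.99% lower. At days 100 and 200, 2 of the 6 were called, and Cd36 was higher and Plin2 lower, against 28.4% of all genes higher and 3.21% lower. In the knockout 3 of the 6 were called, Cidec higher and Plin2 and Cd36 lower, against 19.3% of all genes higher and 14.5% lower. The 1 of 6 called higher at day 45 is 16.7% of the genes tested, under the share of all genes. No gene of the set was called by limma between days 45 and 21, where 0.273% of all genes were called higher, 0% lower and 1811 had an unadjusted p under 0.05, among them Cidec, Plin5 and Fabp4. None was called between days 100 and 200 and day 45 either, where 0.194% were called higher, 0.0264% lower and 890 had an unadjusted p under 0.05, among them Plin2. Between the knockout and day 45, Cd36 and Fabp4 were called lower, against 8.23% of all genes lower and 1.21% higher. The median log2 difference of all tested genes against day 0 was 0.061 for day 21, 0.199 for day 45, 0.311 for days 100 and 200 and 0.016 for the knockout, and -0.234 between the knockout and day 45.

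In the 10 libraries that lack Y-linked transcripts, Cidec, Cd36 and Plin5 were called among the 6 at day 45 against day 0, Cidec and Cd36 higher and Plin5 lower, where 24.9% of the genes tested in those libraries were called higher and 4.71% lower. Vldlr passed the filter in those libraries. Cidec was then called higher and Plin2, Cd36 and Vldlr lower in the knockout against day 0, with a background of 28.8% higher and 28.6% lower. Plin5 was called higher and Cd36, Fabp4 and Vldlr lower in the knockout against day 45, with a background of 13.5% higher and 35.8% lower. Each group then held 2 mice. The term for Y-linked transcripts itself was not called for any of the 6 in a fit of all 14 libraries, in which 1.53% of all genes were called on it. That term is 1 shift common to all groups. For Cidec and Cd36 the library with Y-linked transcripts lay on opposite sides in different groups, and the term cannot show such a pattern.

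**Figure D2:**
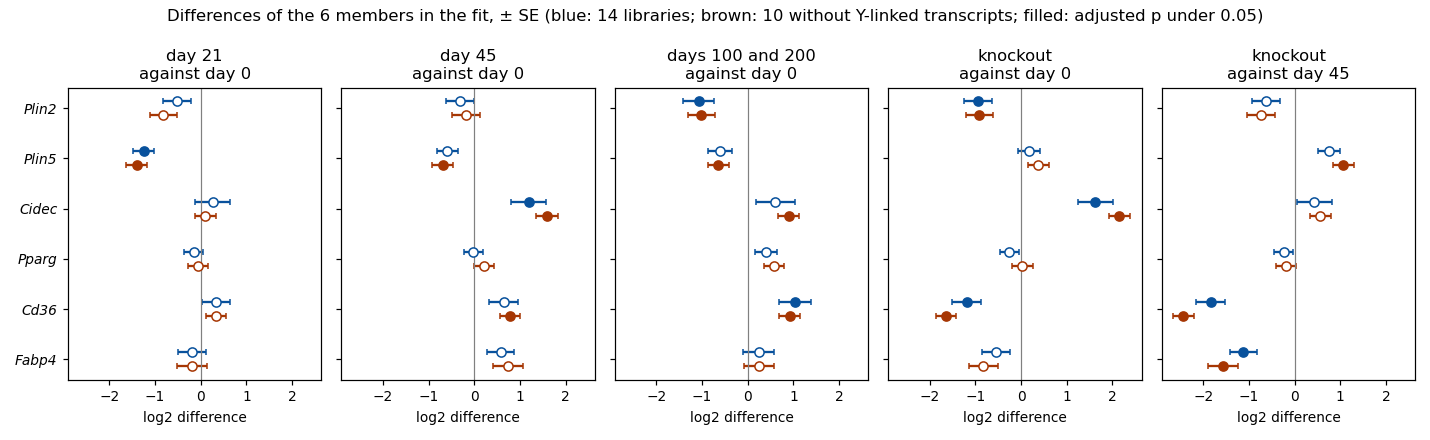
Log2 difference of FPKM + 1 with its standard error for the 6 genes in the fit, in 5 comparisons. Blue points are from 14 libraries, brown points from the 10 that lack Y-linked transcripts, and filled points have an adjusted p under 0.05 (limma). Cidec in the knockout against day 0 is filled in both, at 1.63 and 2.15, and Pparg is filled in none.

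Plin5 coats droplets in tissues that oxidise much fat and ties them to mitochondria. Its values were 21.1, 19.2 and 20.6 FPKM at day 0 and 7.28, 7.33 and 9.46 FPKM at day 21. The 2 groups did not overlap, and every day 21 mouse was under 10 FPKM. Plin5 fell by 1.25 on the log2 scale (SE 0.236, adjusted p = 0.00946, limma), a mean 2.53-fold lower. That call was kept under every alternative run, each mouse left out included. At day 45 the values were 13.4, 11.7 and 14.6 FPKM, between those of day 21 and day 0 with no overlap on either side. The log2 difference from day 0 was -0.58 (SE 0.236, adjusted p = 0.0878, limma), and that from day 21 was 0.67 (SE 0.236, adjusted p = 0.203). Centring each library on its median gave the day 45 difference as -0.82 with an adjusted p of 0.0401, and a fit of the floxed mice alone gave an adjusted p of 0.0339. Plin5 was at 9.53 FPKM at day 100 and 17.6 FPKM at day 200. These 2 mice stood on opposite sides of the day 45 range, and the log2 difference of days 100 and 200 from day 0 was -0.61 (SE 0.264, adjusted p = 0.102). It was called with both mice when each library was centred (-0.94, adjusted p = 0.0319), in a fit of the floxed mice alone (adjusted p = 0.0405) and in the 10 libraries that lack Y-linked transcripts (-0.64, adjusted p = 0.0482). The difference was -1.02 without day 200 and -0.19 without day 100, so its size rests on which of the 2 mice is kept. In the knockout the values were 27.3, 27.6 and 16.0 FPKM, and the mouse with Y-linked transcripts was the low one. The log2 difference between the knockout and day 45 was 0.75 (SE 0.236, adjusted p = 0.0585, limma), and 1.00 with an adjusted p of 0.00185 without knockout mouse C.

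Plin4 lies next to Plin5 on the same strand of chromosome 17, 1798 bases away (mm9, Plin4 at 56240014 to 56249225 and Plin5 at 56251024 to 56256971). It is a perilipin of adipose tissue and muscle. Its values were 0.629, 0.919 and 0.463 FPKM at day 0, 0.244, 0.473 and 0.454 at day 21, and 0.507, 0.814 and 0.813 at day 45. Days 21 and 45 did not overlap, and day 0 overlapped with both. Plin4 was at 1.11 FPKM at day 100 and 1.64 FPKM at day 200, above every day 0 mouse, and at 1.42, 1.21 and 0.609 FPKM in the knockout. Exact two-sided permutation tests gave p = 0.2 for day 21, 0.9 for day 45, 0.2 for days 100 and 200 and 0.3 for the knockout, each against day 0, where the smallest p such a test can give is 0.1. In a fit with the filter lowered to a mean of 0.1 FPKM, Plin4 was called at days 100 and 200 (log2 difference 0.51, adjusted p = 0.0450, limma), and with no filter it was not (0.51, adjusted p = 0.0535). Across the 14 livers log2(FPKM + 1) of Plin4 and Plin5 correlated at r = 0.57.

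Plin2 is the main perilipin of hepatocytes and its protein is stabilised by lipid. Its values were 273.8, 386.7 and 439.5 FPKM at day 0, 151.2, 256.0 and 403.1 at day 21 and 323.6, 290.9 and 260.6 at day 45. The day 21 mice spread widely, and both time points overlapped with day 0. At days 100 and 200 Plin2 was at 205.1 and 142.5 FPKM, under every day 0 and day 45 mouse. It fell by 1.07 on the log2 scale against day 0 (SE 0.338, adjusted p = 0.0293, limma). In the knockout the values were 173.1, 195.0 and 194.1 FPKM, also under every day 0 mouse, and Plin2 fell by 0.94 (SE 0.302, adjusted p = 0.0321). Neither call held in every fit. That of days 100 and 200 was lost without day 0 mouse B (adjusted p = 0.0744), day 0 mouse C (0.0905), day 100 (0.0621) or day 200 (0.203), and that of the knockout without day 0 mouse B (0.0930), day 0 mouse C (0.107), knockout mouse A (0.0991) or knockout mouse B (0.0845), or when the 2 groups were fitted alone (0.0507). The log2 differences in these fits lay between -1.33 and -0.79. Both stayed called in the 10 libraries that lack Y-linked transcripts, with an adjusted p of 0.0229 and 0.0254.

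Cidec, also named Fsp27, makes large droplets out of small ones. At day 0 the values were 0.197, 1.19 and 0.201 FPKM, with the highest in mouse B, the library with Y-linked transcripts. At day 21 they were 0.134, 0.465 and 2.27 FPKM, again with the library with Y-linked transcripts highest and the others at 0.465 FPKM or less. At day 45 they were 3.13, 2.16 and 1.87 FPKM, all above every day 0 mouse, and the library with Y-linked transcripts, mouse C, was instead the lowest. Cidec rose by 1.19 on the log2 scale at day 45 (SE 0.378, adjusted p = 0.0344, limma), a mean 4.51-fold higher, or 11.99-fold without day 0 mouse B. That call was lost without day 0 mouse A (adjusted p = 0.115), day 0 mouse C (0.110), day 45 mouse A (0.106), day 45 mouse B (0.0837) or day 45 mouse C (0.0544), and also with each library centred on its median (0.0997) and with the replicate block (0.0702). Without the libraries that hold Y-linked transcripts the day 45 difference was 1.59 (SE 0.234, adjusted p = 0.00237) against day 0 and 1.49 (SE 0.234, adjusted p = 0.0322) against day 21. That fit leaves out the highest day 0 and day 21 mice and the lowest day 45 mouse, which widens both differences. The single values were 1.29 FPKM at day 100 and 1.17 FPKM at day 200, below every day 45 mouse. The difference of days 100 and 200 from day 0 was 0.61 (SE 0.422, adjusted p = 0.311), 0.90 (adjusted p = 0.0135) in the 10 libraries and 0.27, not called, with each library centred. In the knockout Cidec stood at 3.33, 5.57 and 2.25 FPKM, with every mouse above every day 0 mouse and the library with Y-linked transcripts, mouse C, the lowest. The mean was 7.02-fold above day 0, 18.7-fold without day 0 mouse B and 5.27 to 8.41-fold without any other single mouse. Cidec rose by 1.63 (SE 0.378, adjusted p = 0.00817), and this call was kept under every alternative run.

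Cidea, a relative of Cidec that is abundant in brown fat, was nearly absent. It was at 0.034, 0.104 and 0 FPKM at day 0, which the steps of the table put at about 2, 6 and 0 fragments. At day 21 it was at 0.021, 0.083 and 0.259 FPKM and at day 45 at 0.133, 0.655 and 0.259 FPKM, or about 6, 32 and 15 fragments. Every day 45 mouse was above every day 0 mouse, as were day 100 (0.378 FPKM), day 200 (0.418 FPKM) and the knockout (0.302, 0.315 and 0.170 FPKM, about 8, 9 and 5 fragments). The exact two-sided permutation p was 0.1 in each of these 3 comparisons, the smallest the design allows. With no filter on low genes, Cidea was called at days 100 and 200 (log2 difference 0.42, adjusted p = 0.0352, limma) and not at day 45 (0.35, adjusted p = 0.0587) or in the knockout (0.27, adjusted p = 0.124).

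Pparg was not called in any of the 7 comparisons. Its values were 5.83, 8.31 and 5.15 FPKM at day 0, 4.09, 6.51 and 6.43 at day 21, 7.38, 5.76 and 5.65 at day 45 and 6.66, 4.72 and 4.19 in the knockout, and these groups overlapped. Days 100 and 200, at 8.34 and 8.92 FPKM, were just above the highest day 0 mouse. The log2 difference was -0.15 (SE 0.212, adjusted p = 0.755) at day 21, -0.02 (SE 0.212, adjusted p = 0.970) at day 45, 0.40 (SE 0.237, adjusted p = 0.234) at days 100 and 200 and -0.26 (SE 0.212, adjusted p = 0.342) in the knockout, by limma against day 0. The sign at day 45 changed with the mice left out, so no direction can be given for it. The locus spans 129181 bases of chromosome 6 (mm9, 115311239 to 115440419), and the gene-level FPKM does not separate its isoforms.

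Cd36 is a receptor of the cell surface that takes up long-chain fatty acids, and endothelial cells and macrophages carry it as well as hepatocytes. Its values were 16.1, 15.2 and 24.9 FPKM at day 0, 22.7, 29.1 and 19.2 at day 21 and 31.0, 39.9 and 19.9 at day 45. The libraries with Y-linked transcripts were the lowest of each of these groups. Cd36 was at 40.2 FPKM at day 100 and 37.3 FPKM at day 200, above every day 0 mouse, and rose by 1.04 on the log2 scale (SE 0.348, adjusted p = 0.0374, limma). That call was lost without day 0 mouse A (adjusted p = 0.0992), day 0 mouse B (0.108), day 100 (0.197) or day 200 (0.111), with each library centred (log2 difference 0.70, adjusted p = 0.151) and with Y-linked transcripts as a term, where the difference was 0.99 (adjusted p = 0.0547). It was kept in the 10 libraries that lack them (0.92, adjusted p = 0.00949). At day 45 the difference was 0.64 (SE 0.311, adjusted p = 0.154) in 14 libraries and 0.78 (SE 0.221, adjusted p = 0.0255) in the 10. It was 0.42 without day 45 mouse B and 0.41 with each library centred, and was called in neither fit.

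In the knockout Cd36 ran the other way. Its values were 6.18, 5.28 and 12.3 FPKM, all under every mouse of the other groups, and the library with Y-linked transcripts, mouse C, was here the highest. It fell by 1.19 against day 0 (SE 0.311, adjusted p = 0.0135, limma), a call lost without day 0 mouse C (adjusted p = 0.0558), knockout mouse A (0.0556) or knockout mouse B (0.0714), or when the 2 groups were fitted alone (0.0696). Against day 45 it fell by 1.84 (SE 0.311, adjusted p = 0.00621), a mean 3.82-fold lower, and that call was kept without any single mouse and lost only when the 2 groups were fitted alone (0.0863). Its difference from day 0 in the 10 libraries that lack Y-linked transcripts was -1.65 (SE 0.221, adjusted p = 0.000281). Those libraries leave out the lowest day 0 mouse and the highest knockout mouse, which widens the difference. The mean of day 45 stood above that of day 0 and the mean of the knockout below it, and it is the difference between day 45 and the knockout that was tested directly.

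Fabp4 carries fatty acids inside adipocytes, macrophages and capillary endothelium. Its values were 14.0, 16.6 and 18.7 FPKM at day 0, 12.7, 15.5 and 14.5 at day 21 and 21.1, 36.1 and 20.1 at day 45. Day 45 did not overlap with either earlier group, and the difference from day 0 was 0.58 (SE 0.302, adjusted p = 0.190, limma), or an adjusted p of 0.0474 when the floxed mice were fitted alone. It was 0.32 without day 45 mouse B and 0.34 with each library centred, and was called in neither fit. Days 100 and 200 stood at 21.1 and 17.9 FPKM and the knockout at 12.3, 6.04 and 16.9 FPKM. Against day 45 the knockout fell by 1.12 (SE 0.302, adjusted p = 0.0413). That call was lost without day 45 mouse A (adjusted p = 0.0706), day 45 mouse B (0.150), day 45 mouse C (0.0708), knockout mouse A (0.102) or knockout mouse B (0.135), when the 2 groups were fitted alone (0.238), with no filter (0.0538), with the replicate block (0.0818) and with each library centred (0.0999). It was kept in the 10 libraries, at -1.56 (SE 0.322, adjusted p = 0.00361). Against day 0 the knockout differed by -0.54 (SE 0.302, adjusted p = 0.171), and by -0.84 with an adjusted p of 0.0214 without knockout mouse C.

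The livers were checked for the other cells that express these genes, since in bulk tissue fewer cells of a type and less RNA per cell cannot be told apart. The shares of all genes called higher were 23.7% at day 45, 28.4% at days 100 and 200 and 19.3% in the knockout, and 14.5% were lower in the knockout and 8.23% lower in the knockout against day 45. Of 10 endothelial markers tested, 4 were called higher at day 45 and 6 at days 100 and 200, 1 was called lower in the knockout against day 0, a share under that of all genes, and 4 were called lower in the knockout against day 45. Their summed level was 33.7 to 72.4 FPKM at day 0, 78.5 to 99.0 at day 21, 91.8 to 115 at day 45, 91.2 at day 100, 87.4 at day 200 and 52.5 to 55.6 in the knockout. Of 10 macrophage markers tested, 10 were called higher at day 45, 7 at days 100 and 200 and 6 in the knockout, and 4 were called lower in the knockout against day 45, with sums of 167 to 289 FPKM at day 0, 417 to 558 at day 21, 592 to 694 at day 45, 767 at day 100, 926 at day 200 and 220 to 622 in the knockout. Of 8 stellate cell markers, 6 were called higher at day 45, 8 at days 100 and 200 and 3 in the knockout, and 3 were called lower in the knockout against day 45. At day 21, beside the lower Plin5, 3 of 10 macrophage, 2 of 10 endothelial and 0 of 8 stellate cell markers were called higher, against 6.2% of all genes. Endothelial sums and Cd36 were both above every day 0 liver at days 100 and 200. At day 21 the endothelial sums were above every day 0 liver while Cd36 and Fabp4 overlapped with day 0, and in the knockout the sums lay inside the day 0 range while Cd36 was under every day 0 mouse. The part of these cells in the differences was not tested. Adipocyte markers were nearly absent. None of the 7 was in the fit, Plin1 was listed at 0 in all 14 libraries, Adipoq was at most 0.084 FPKM, and the highest sum, 1.32 FPKM, was that of day 0 mouse B, all of it Cfd. Of the 8 hepatocyte markers 2 to 4 were listed at 0 in every library, which may be failed estimates in genes so abundant. Alb was at 0 in all 14 libraries, Ahsg either at 0 or at 7425 to 21888 FPKM, and Trf and Serpina1c at 0 in most, so the sum of the 8, at 16002 to 55542 FPKM, moved with the listed zeros and is not a measure of hepatocyte content. Ttr, Apoa1, Fga and Hp were at 1613 FPKM or more in every library.

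**Figure D3:**
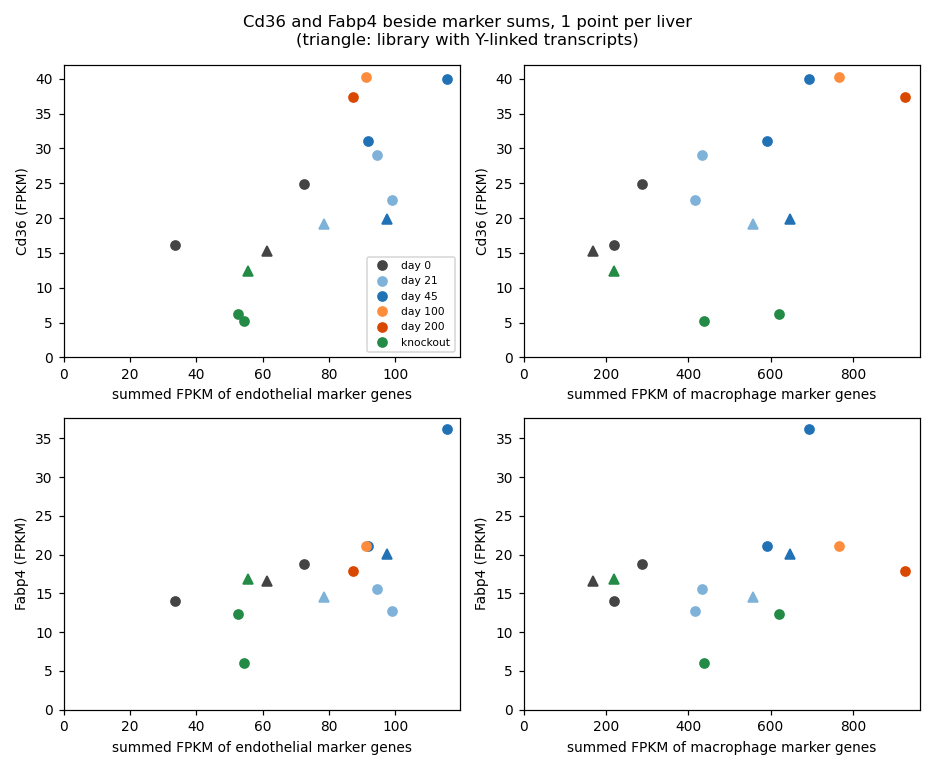
FPKM of Cd36 (top) and Fabp4 (bottom) against the summed FPKM of 10 endothelial markers (left) and 11 macrophage markers (right), 1 point per liver, with triangles for libraries with Y-linked transcripts. Knockout livers lie at endothelial sums of 52.5 to 55.6 FPKM, beside day 0, and day 45 livers at 91.8 to 115 FPKM, while 2 knockout livers reach macrophage sums above every day 0 liver at the lowest Cd36.

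Vldlr takes up triglyceride-rich lipoproteins. Its values were 1.47, 0.238 and 1.59 FPKM at day 0, 1.34, 0.940 and 0.10 at day 21 and 0.937, 1.11 and 0.488 at day 45. The lowest mouse of each group was the library with Y-linked transcripts. It was at 1.99 FPKM at day 100 and 1.58 FPKM at day 200, and at 0.268, 0.265 and 0.507 FPKM in the knockout, where that library was instead the highest. Over 14 libraries the knockout overlapped with day 0 only through day 0 mouse B (exact two-sided permutation p = 0.4). With no filter, limma over 14 libraries gave -0.57 (SE 0.312, adjusted p = 0.204) for the knockout against day 0, -0.44 (SE 0.312, adjusted p = 0.353) against day 45 and -0.12 (SE 0.312, adjusted p = 0.841) for day 45 against day 0, and with a filter of 0.1 FPKM none of these was called either. In the 10 libraries, where Vldlr passed the filter, the knockout differed by -0.996 (SE 0.168, adjusted p = 0.000949, limma) against day 0 and -0.68 (SE 0.168, adjusted p = 0.00902) against day 45, and day 45 differed from day 0 by -0.32 (SE 0.168, adjusted p = 0.181).

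Mogat1 makes diacylglycerol from monoacylglycerol, the first step of the pathway that bypasses glycerol phosphate. Its values were 0.485, 0.563 and 0.267 FPKM at day 0, 0.132, 0.169 and 0.301 at day 21 and 0.752, 0.588 and 0.196 at day 45. Day 45 spanned the range of day 0. It was at 0.165 and 0.158 FPKM at days 100 and 200 and at 0.130, 0.034 and 0.233 FPKM in the knockout, and every one of these 5 mice was under every day 0 mouse. The exact two-sided permutation p against day 0 was 0.1 for the knockout, the smallest the design allows, and 0.2 for days 100 and 200.

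Of 18 other genes of triglyceride synthesis tested, 5 were called higher at day 45 (27.8%, near the 23.7% of all genes called higher), 0 lower and 13 not called, with a list median of 0.098 against 0.199 for all genes. In the knockout 5 were called higher (27.8%, against 19.3% of all genes) and 3 lower (16.7%, against 14.5%). Agpat1, which acylates lysophosphatidic acid, stood at 5.64, 3.91 and 4.41 FPKM at day 0, 17.3 to 26.8 at day 21 and 33.5 to 35.4 at day 45, with no overlap between these groups. It rose by 2.67 on the log2 scale at day 45 (SE 0.246, adjusted p = 8.24e-05, limma) and by 2.83 in the knockout (SE 0.246, adjusted p = 1.96e-05). Mogat2, the intestinal counterpart of Mogat1, stood at 0.168, 0.093 and 0.184 FPKM at day 0, 0.704 to 1.19 at day 21, 4.85 to 14.4 at day 45 and 6.67 to 13.6 in the knockout. It rose by 2.99 at day 45 (SE 0.374, adjusted p = 0.000426) and was the gene of the lipid lists called between days 21 and 45 (2.18, adjusted p = 0.0414). Agpat9 (1.10, adjusted p = 0.0330) and Agpat4 (1.09, adjusted p = 0.00688), acyltransferases of the same pathway, were also higher at day 45. In every knockout mouse Mogat1 was lower and Mogat2 higher than in any day 0 mouse, and the difference between the 2 genes was not tested.

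**Figure D4:**
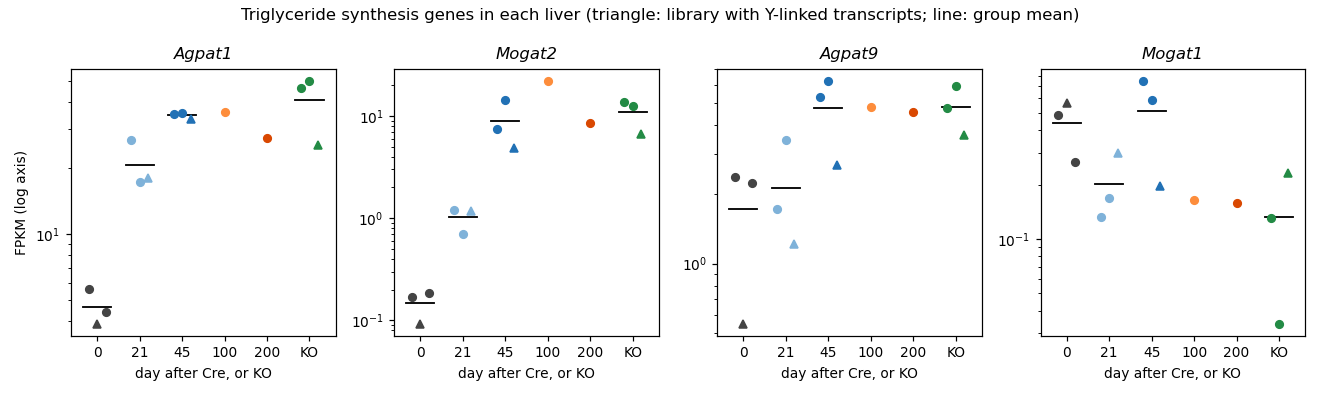
FPKM of 4 triglyceride synthesis genes in each liver on log axes, by day after Cre or in the knockout (KO). Points are mice, triangles are libraries with Y-linked transcripts and lines are means of the groups of 3. Agpat1 is at 3.91 to 5.64 FPKM at day 0 and 33.5 to 35.4 FPKM at day 45, and Mogat1 has its lowest value, 0.034 FPKM, in the knockout.

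Other gene groups around the droplet held genes called in either direction. At day 45 the background was 23.7% of all genes higher and 2.99% lower, and over the 5 lipid lists, triglyceride synthesis included, 13 of 74 genes were higher (17.6%) and 5 lower (6.76%). Of 14 further droplet coat genes tested, 0 were called lower and 2 higher at day 45 (14.3%), the perilipin Plin3 (0.72, SE 0.242, adjusted p = 0.0443, limma) and the phospholipid enzyme Lpcat1 (0.86, SE 0.168, adjusted p = 0.00296). Of 9 lipolysis genes, 2 were called higher (22.2%) and 1 lower (11.1%) at day 45, where Ces1g (1.10) and the hormone-sensitive lipase Lipe (0.67) were higher and the monoglyceride lipase Mgll (-0.92) lower. Of 16 fatty acid uptake genes, 3 were higher (18.8%) and 3 lower (18.8%) at day 45. Lipoprotein lipase, Lpl, rose by 1.47 (SE 0.423, adjusted p = 0.0219) at day 45 and by 2.32 (adjusted p = 0.00241) in the knockout, and Fabp7 rose by 1.23 at day 45. The hepatocyte fatty acid importers Slc27a2 and Slc27a5 fell by 1.23 and by 1.10 at day 45. Of 17 genes for PPARs and their partners, 1 was called higher (5.88%) and 1 lower (5.88%) at day 45. Ppard, another PPAR, rose by 1.29 (SE 0.214, adjusted p = 0.00137) and Mlxipl, the carbohydrate-response factor, fell by 0.93 (SE 0.167, adjusted p = 0.00201). In the knockout 15 of the 74 genes of the 5 lists were called higher (20.3%, against 19.3% of all genes) and 16 lower (21.6%, against 14.5%).

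The patterns most like those of the 6 genes in the fit were sought among all tested genes by Pearson correlation of log2(FPKM + 1) over the 14 livers, which include the differences between groups. For Plin2 they were Slc25a20 (r = 0.91), the carnitine-acylcarnitine carrier of mitochondria, and 2610019F03Rik (r = 0.81). For Plin5 they were Mrps24 (r = 0.90) and Ndufb11 (r = 0.88), of the mitochondrial ribosome and complex I. Cidec was most like Cyp2d12 (r = 0.89) and Camk2n2 (r = 0.88), and Pparg most like Rbm14 (r = 0.77) and Raet1e (r = 0.74). Cd36 was most like Add3 and Zfp111 (r = 0.97 each), and Fabp4 most like Myct1 (r = 0.88) and Lin9 (r = 0.86). Within the set the highest correlation was that of Cd36 and Fabp4 (r = 0.78), followed by Cd36 and Vldlr (r = 0.70), and the lowest that of Plin5 and Cd36 (r = -0.66).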

How the data were processed

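FPKM values, which the authors deposited, come from paired poly(A) reads aligned to mm9 with TopHat and quantified with Cufflinks 2.2.1 under upper-quartile scaling, with ribosomal, snoRNA and mitochondrial sequences removed. The deposited small RNA table holds RPM, reads scaled to each library's microRNA total, aligned with Bowtie 0.12.7. Depth is relative and approximate, read from the smallest FPKM steps, which follow the upper-quartile scaling. Rows of the same symbol were summed (224 symbols), and 3 empty columns were not used. Genes whose mean reached 1 FPKM were fitted as log2(FPKM + 1) in 5 groups (days 100 and 200 joined, after the study's methods) with limma 3.58.1 in R 4.3.3, trended variance, and Benjamini-Hochberg adjustment within each comparison, and the fit was tested on simulated data. Genes under the filter had exact two-sided permutation tests. The genes and lists were chosen with earlier results of these data known. Named besides are up to 4 called genes a list with the largest difference at day 45, and the 2 most correlated genes of each fitted gene. P-values measure the spread between these mice, whose litters are not given. Each mouse was left out in turn, and pseudocount, filter, scaling, samples in the fit, replicate block, variance trend and symbol choice were varied. Fits on Y-linked transcripts (summed FPKM of at least 1) were added after the data were seen. Sequences are from GENCODE vM1 (mm9) and the RefSeq table (GRCm38.p6). Some microRNA seed matches are not reported here.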

Additional observations from a re-analysis of the deposited data

Results flagged for a closer look

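Cd36 differed between the germline knockout and the conditional removal at day 45, tested directly between the 2 groups (log2 difference -1.84, limma): 3 of 3 knockout mice were under every day 0 mouse and 2 of 3 day 45 mice were above every one. Fabp4 differed between the same groups (log2 difference -1.12), with all 3 day 45 mice above every day 0 mouse and 2 of 3 knockout mice under every one. No group has 4 or more mice, so single mice were not screened as outliers.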

How the results depend on the processing

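Of the called genes, Plin5 at day 21 and Cidec in the knockout stayed called under every alternative run. The other calls were each lost under at least 1 alternative, and in 18 cases a value not called passed the threshold under an alternative other than leaving out a mouse; the cause was not tested. Groups of 1 to 3 mice and FPKM without fragment totals limit what can be shown for Cidea, Cidec, Plin4, Mogat1 and Vldlr, and days 100 and 200 hold 1 mouse each, so a fit without either assumes that the lone mouse varies like the other groups.

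The number of the lipid droplet and steatosis genes called was 1 each for days 21 and 45, 2 for days 100 and 200 and 3 for the knockout, all against day 0, and 2 for the knockout against day 45. With a mouse left out it was 0 to 1 at day 45, 0 to 1 at days 100 and 200, 1 to 4 in the knockout and 1 to 3 in the knockout against day 45. At day 45 it was 2 with only the 2 groups compared, 3 in floxed mice only and 3 in the 10 libraries that lack Y-linked transcripts. All genes in these fits gave 3110 higher and 564 lower, 3680 and 669, and 2852 and 539, against 2688 and 339 in the main fit. At days 100 and 200 it was 4 with a filter of 0.1 FPKM, 1 with day 100 alone, 0 with day 200 alone, 1 with Y-linked transcripts as a term and 4 in the 10 libraries. In the knockout it was 1 with only the 2 groups compared, where all genes gave 768 higher and 274 lower, against 2191 and 1642 in the main fit. Against day 45 the knockout gave 1 with no filter, 1 with libraries centred, 0 with only the 2 groups compared and 4 in the 10 libraries. All genes in these fits gave 201 higher and 1067 lower, 186 and 219, 23 and 40, and 1544 and 4096, against 137 and 935 in the main fit. Between days 21 and 45 it was 1 in the 10 libraries, where all genes gave 67 higher and 15 lower, against 31 and 0 in the main fit. The calls over all genes moved in these fits too. At days 100 and 200 they were 3227 higher and 365 lower, 4889 and 422 with a filter of 0.1 FPKM, 2471 and 244 with day 100 alone, 1559 and 71 with day 200 alone and 3931 and 650 in the 10 libraries.

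The replicate letters gave no pairing. Of 18 pairs of same-letter mice, 8 had deviations from their group means that correlated at over 0.1 (range -0.447 to 0.501). With the replicate block the number called was 0 at day 45 and 1 in the knockout against day 45, and of the other lipid genes 2 were lower at day 21, 0 higher between days 21 and 45 and 2 lower in the knockout against day 45. Of the set's calls the block lost Cidec at day 45 (adjusted p = 0.0702) and Fabp4 in the knockout against day 45 (0.0818), and no other.

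Some values changed sign. With libraries centred, Fabp4 at days 100 and 200 against day 0 was -0.10 and Pparg between days 21 and 45 was -0.0389. With day 200 alone, Plin5 against day 45 was 0.39. With the 10 libraries Pparg was 0.21 at day 45 and 0.0295 in the knockout, Vldlr was -0.0756 between days 21 and 45, and Plin5 was 0.0478 between days 100 and 200 and day 45. With a mouse left out, Pparg ran from -0.28 to 0.0298 at day 21, from -0.14 to 0.16 at day 45 and from -0.0484 to 0.23 between them. Plin2 between days 21 and 45 ran from -0.14 to 0.56 and Cidec at day 21 from -0.19 to 0.58, and Plin5 between days 100 and 200 and day 45 from -0.43 to 0.39.

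Of the other lipid genes, 2 were called higher and 1 lower at day 21, and the 2 counts were 13 and 5 at day 45, 12 and 9 at days 100 and 200, 15 and 16 in the knockout, 1 and 0 between days 21 and 45, and 0 and 4 in the knockout against day 45. With a mouse left out the lower count at day 21 was 1 to 2, and at day 45 8 to 12 were higher and 2 to 7 lower. At days 100 and 200 3 to 10 were lower, and 0 to 1 higher against day 45. In the knockout 9 to 25 were higher and 9 to 24 lower, and against day 45 0 to 19 higher and 2 to 21 lower. Over all genes the same fits gave 1063 to 3610 higher and 558 to 3490 lower in the knockout, and 42 to 1661 higher and 161 to 4258 lower against day 45, the highest of each without knockout mouse C, so the lipid counts moved with those of the whole table. Between days 21 and 45 0 to 1 were higher. With a pseudocount of 0.1 FPKM 2 were lower at day 21, as with no filter. With no filter or a filter of 0.1 FPKM 0 were higher between days 21 and 45 and 1 in the knockout against day 45. With libraries centred 10 were lower at day 45 and 15 at days 100 and 200, 0 higher between days 21 and 45, and 1 higher and 2 lower in the knockout against day 45. With only the 2 groups compared 4 were higher and 4 lower at day 21, 8 lower at day 45, 5 higher and 9 lower in the knockout, 0 higher between days 21 and 45 and 0 lower in the knockout against day 45. All genes then gave 1153 higher and 344 lower at day 21, 564 lower at day 45, and 768 and 274 in the knockout. They gave 2 higher between days 21 and 45 and 40 lower in the knockout against day 45. In floxed mice only 4 were higher and 7 lower at day 21, 10 lower at day 45, and 5 higher and 1 lower between days 21 and 45. All genes then gave 1370 higher and 551 lower at day 21, 669 lower at day 45, and 736 and 34 between days 21 and 45. In the main fit these counts of all genes were 704 and 161, 339, and 31 and 0. With day 200 alone 4 were lower. With Y-linked transcripts as a term 3 were lower at day 21, and 2 higher and 7 lower in the knockout against day 45. With the 10 libraries the lower counts were 3, 10 and 14 at the 3 steps after Cre, where 177, 539 and 650 of all genes were lower. In those libraries 26 were higher in the knockout, and 16 higher and 23 lower in the knockout against day 45, where 28.8%, 13.5% and 35.8% of all genes were called.

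Centring each library moved the split of all tested genes from 2688 higher and 339 lower to 1644 and 795 at day 45, from 3227 and 365 to 1785 and 993 at days 100 and 200, and from 137 and 935 to 186 and 219 in the knockout against day 45.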
